A study of Mus musculus with 6 samples.

Results

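The genes described here are the mouse genes whose human counterparts form the ETV6-RUNX1 fusion, together with their closest partners. They are Etv6 and Runx1, the paralogs Runx2 and Runx3, the shared subunit gene Cbfb, and the corepressor genes Ncor1, Sin3a, Hdac3 and Tle4. These 9 genes were picked by symbol from 55471 gene IDs. Each had 1 row in the table, and all 9 were among the 13470 genes that reached a mean of 1 TPM and were tested. TPM, the unit of the table, is a length-corrected share of a library, so levels of different genes can be compared within it.

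The libraries were made from total RNA of mouse haematopoietic stem cells, sorted as CD150+ CD48- cells within the lineage-negative, Sca1+ Kit+ fraction. Every library came from the genotype labelled ETV6-RUNX1 (E/R), an inducible fusion, so uninduced and induced mice carried the same alleles. The uninduced group (n = 3) had no doxycycline, and the induced group (n = 3) had doxycycline in food for 2 weeks. Doxycycline-fed mice that lack the transgene were not analysed here, and an effect of the drug itself cannot be told apart from that of the fusion. The driver of the transgene, the species of its coding sequence, the age of the mice and how many were pooled are not given in the sources used here.

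ETV6 is a repressor of the ETS family. RUNX proteins bind DNA through the Runt domain, and CBFB, which does not itself bind DNA, strengthens that binding. The fusion joins the amino-terminal part of ETV6 to nearly all of RUNX1 and is found in childhood B-cell precursor leukaemia. It keeps the Runt domain, and it recruits corepressors: NCOR1 with its deacetylase HDAC3, the scaffold SIN3A, and Groucho proteins of the TLE family. In stem cells, RUNX1 with CBFB is best known for the emergence of blood stem cells and for platelet and lymphoid differentiation.

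The Runx genes share sequence features that bear on this network, so a few short sequences are shown first. RUNX proteins end in a short peptide that binds Groucho proteins such as TLE4. The last 30 coding bases before the stop codon are printed 5′ to 3′ from GENCODE M21 transcripts (build GRCm38), with the final 15 bases, which encode that peptide, in capitals. They lie at chr16:92605658-92605687 (minus strand) for Runx1, chr17:44607908-44607937 (minus strand) for Runx2 and chr4:135175800-135175829 (plus strand) for Runx3.
Runx1: cgcctggaggaggccGTGTGGCGGCCCTAC
Runx2: agaatggatgagtctGTTTGGCGGCCATAT
Runx3: cgcatggacgaggccGTGTGGCGGCCCTAC
Runx1 and Runx3 had the same base at 15 of these 15 positions, and Runx2 shared 12 with each. Over the whole coding sequence the longest identical run was 38 bases between Runx1 and Runx3, and 26 bases between Runx2 and either of them. Both runs are shorter than the 100-base reads.

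Promoter windows from RefSeq (GRCm38.p6), each covering 250 bases before to 50 after a start site, were searched for the RUNX core TGTGGT on both strands (ACCACA in reverse). Windows of 8 of the 9 genes were searched, 13 windows in all, and no window of Hdac3 was searched. The core was found in 4 of the 13 windows, 2 or more times in each, where 16.8% of all 32851 windows held at least 1 and 1.81% held 2 or more. These were windows of Runx1, Runx2, Runx3 and Ncor1. In the windows of the Runx genes, 2 cores in the same orientation started 8 bases apart. That spacing, noticed after the windows were read, occurred in 7 of 32851 windows (0.0213%), and 3 of the 7 belonged to the Runx genes. The stretches holding the pair are printed 5′ to 3′ with the cores in capitals, at chr16:92826025-92826054 (minus strand) for Runx1, chr17:44814583-44814612 (minus strand) for Runx2 and chr4:135120503-135120532 (plus strand) for Runx3.
Runx1: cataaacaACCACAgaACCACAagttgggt
Runx2: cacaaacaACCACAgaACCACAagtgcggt
Runx3: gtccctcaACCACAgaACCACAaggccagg
The first core began 29 bases after the start site in Runx1, 24 after it in Runx2, and 134 before it in Runx3.
For Runx1 the window is the upstream of its 2, at the distal promoter. For Ncor1 the window with cores is the downstream of its 2. The upstream window of Ncor1, the downstream windows of Runx1 and Runx3, and the windows of Etv6, Cbfb, Sin3a and Tle4 held no such letters. A longer ETS-type motif, CCGGAAG on either strand (CTTCCGG), was found in 1 of the 13 windows, one of Ncor1, and in 8.86% of all windows. These are matches of letters and carry no measurement of binding. The expression values are per gene and do not separate the 2 promoters of Runx1.

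Expression was then compared between induced and uninduced libraries across all tested genes with limma on log2(TPM + 1). None of the 9 genes passed an adjusted p of 0.05 (0 of 9), where 11.5% of all tested genes did. At an unadjusted p under 0.05 there were 2 of 9, Sin3a and Runx3, both lower in induced cells, against 27.9% of all genes. Groups did not overlap for 1 of 9, Sin3a, which was lower, against 33.1% of all genes, 28.2% lower and 4.83% higher. The median log2 change of the 9 genes was -0.40, and that of all tested genes was -0.35.

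That offset touches every value below. Nuclear protein-coding genes took 26.6% to 32.9% of the TPM in uninduced and 20.5% to 23.2% in induced libraries, and the rest of the TPM lay in other RNA. Median-of-ratios scaling, which divides each library by the typical ratio of its genes to their mean, put the median change of all genes at 0.0032, and that of the 9 genes at 0.0032 too. On these values, called rescaled from here on, 0 of 9 passed, against 5.98% of all genes, and groups did not overlap for 3 of 9, all higher in induced cells, against 27.9% of all genes in either direction and 13.6% in that one. These 3 were Etv6, Runx1 and Runx2, the same 3 that had an unadjusted p under 0.05, where 21.8% of all genes did. Depth is unknown because TPM does not keep it. Replicates are libraries that the titles number separately, and no label says whether they came from separate animals, so the tests measure the spread between these libraries. Means are given ± SD over the 3 libraries of a group.

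**Figure D1:**
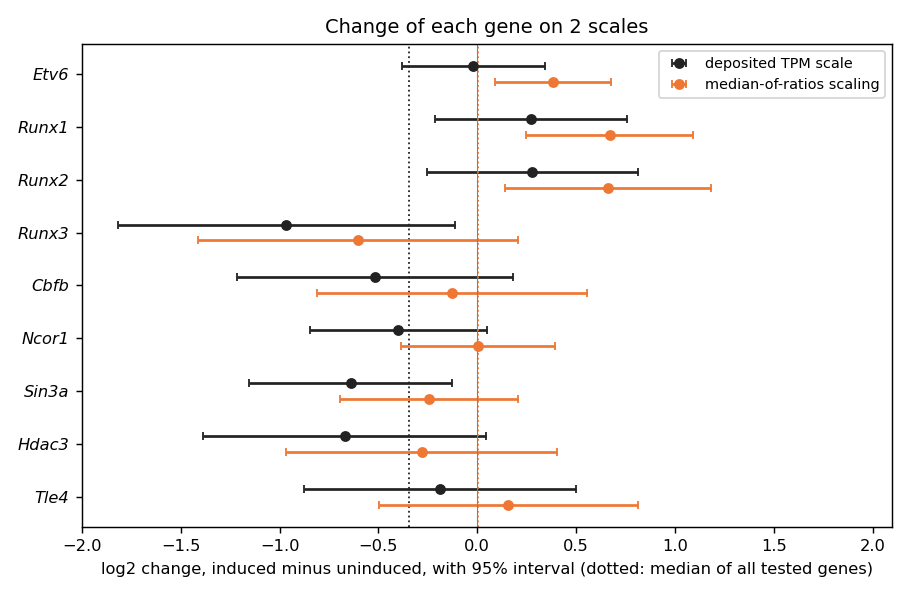
Log2 change of each of the 9 genes (induced minus uninduced, x axis) with its 95% interval from limma, on the deposited TPM scale (black) and after median-of-ratios scaling (orange). Dotted lines mark the median change of all 13470 tested genes, -0.35 and 0.0032. Etv6, Runx1, Runx2 and Tle4 lie to the right of the median on both scales. Runx3, Cbfb, Sin3a and Hdac3 lie to the left of it on both, and Ncor1 lies close to it.

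The other cell types a sort could hold were checked with marker lists. All 10 stem cell markers had a mean of at least 1 TPM, and on the deposited scale 3 rose and 3 fell (limma). When rescaled, 4 rose and 1 fell. Ly6a, which encodes the sort marker Sca1, rose (1.33, limma adjusted p 0.00694), and Kit, another sort marker, fell (-0.81, 0.0354) but did not pass when rescaled (-0.40, 0.224). Slamf1, which encodes the sort marker CD150, had a log2 change of -0.78 that did not pass (limma adjusted p 0.155), nor when rescaled (-0.41, 0.472). The sums of the stem cell markers overlapped as deposited, at 465 to 640 TPM in uninduced and 517 to 547 TPM in induced libraries, and were separate when rescaled, at 435 to 504 and 580 to 627. Those of 3 multipotent progenitor markers were separate on both scales, at 49.1 to 62.9 TPM and 67.1 to 86.8 TPM as deposited. Most of that sum was Cd34 (means 49.5 and 71.5 TPM), which passed only on the rescaled values (0.92, limma adjusted p 0.0204). Flt3 had means of 4.17 and 4.26 TPM, and Cd48, with means of 1.24 and 0.330 TPM, was not tested. Of 6 B-cell markers 4 were listed at 0 in all 6 libraries, among them Cd79a, Ebf1 and Pax5. Another, Cd79b, was at 4.21, 9.86 and 7.06 TPM in uninduced and 3.85, 3.11 and 3.59 TPM in induced libraries, separate groups that did not pass (limma adjusted p 0.197). The early lymphoid and T-cell markers Il7r, Dntt, Cd3e and Cd3d were listed at 0 in all 6 libraries. The summed level of 7 erythroid markers, 4 of them globin genes, was 47.4 to 55.7 TPM in uninduced and 386 to 449 TPM in induced libraries. That of the proliferation markers Mki67 and Top2a was 106 to 118 TPM and 12.7 to 18.3 TPM. Of the erythroid markers 6 were tested and 5 rose, and both proliferation markers fell (limma). The summed level of 5 megakaryocyte markers was 87.9 to 111 TPM in uninduced and 113 to 127 TPM in induced libraries, also without overlap. Without Pf4 the other 4 overlapped, at 65.8, 69.5 and 72.8 TPM in uninduced and 68.7, 55.6 and 56.04 TPM in induced libraries. Of the 4 tested, the platelet chemokine genes Pf4 and Ppbp rose (limma adjusted p 0.0253 and 0.00343), while Itga2b and Vwf had log2 changes of -0.46 and -0.50 that did not pass. The summed level of 3 endothelial markers was 14.6 to 25.1 TPM and 29.1 to 38.9 TPM, nearly all of it Pecam1, which passed on the rescaled values (1.199, limma adjusted p 0.0320) but not on the deposited scale (0.81, 0.0661). The summed levels of 7 myeloid markers overlapped as deposited, at 234 to 284 TPM and 233 to 282 TPM, and were separate when rescaled, at 207 to 223 and 274 to 318. Among them Prtn3 rose (1.12, limma adjusted p 0.0114) and Lyz2 passed only on the rescaled values (0.85, 0.0130), while Mpo and Elane had log2 changes of -1.10 and -1.15 that did not pass. Their part in the values of the 9 genes was not tested, and in sorted bulk cells fewer cells of a type and less RNA per cell cannot be told apart.

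Etv6 and Runx1, the fusion's parents, were both well expressed. Etv6 (ENSMUSG00000030199, GRCm38 chr6:134035700-134270158, plus strand) had the highest mean level of the 9 genes over the 6 libraries, above 94.9% of all tested genes. In the uninduced group alone Ncor1 was higher (87.3 against 84.5 TPM). It was at 79.0, 95.4 and 79.0 TPM in uninduced replicates 1, 2 and 3, and at 82.7, 79.4 and 86.8 TPM in induced replicates 1, 2 and 3. The induced libraries lay within the uninduced range. The group means were 84.5 ± 9.48 and 83.0 ± 3.70 TPM. The log2 change of -0.02 had a 95% interval of -0.38 to 0.34 (limma adjusted p 0.949). Against the median gene this is 0.33 higher, and the sign turned on the rescaled values, where Etv6 was at 65.8, 75.0 and 74.7 scaled TPM in uninduced and 93.0, 96.3 and 92.2 in induced libraries. There the groups were separate, with a log2 change of 0.38 (95% interval 0.089 to 0.68), which did not pass over all genes (limma adjusted p 0.126).

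Runx1 (ENSMUSG00000022952, chr16:92601466-92826149, minus strand) was at 46.1, 35.6 and 29.4 TPM in uninduced and 49.8, 39.3 and 44.1 TPM in induced libraries. Uninduced replicate 1 lay above 2 of the 3 induced libraries, so the groups overlapped. The means were 37.1 ± 8.45 and 44.4 ± 5.24 TPM, a log2 change of 0.27 (95% interval -0.21 to 0.76, limma adjusted p 0.452). It was 0.44 without uninduced replicate 1 and 0.12 without uninduced replicate 3. On the rescaled values Runx1 was at 38.4, 28.0 and 27.8 in uninduced and 56.0, 47.7 and 46.8 in induced libraries. On that scale no library of one group reached the other, and the log2 change was 0.67 (95% interval 0.25 to 1.09, limma adjusted p 0.0729). The rows of Etv6 and Runx1 are those of the mouse genes. Reads from the fusion transgene were not separated from them, so what it adds to either row, if its sequence maps there, was not measured. No row of the table carries the fusion's name.

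Within a library, a ratio of 2 genes does not depend on how the library was scaled. Runx1 stood at 0.584, 0.373 and 0.372 of the Etv6 level in uninduced libraries and at 0.602, 0.495 and 0.507 in induced libraries. The lowest values were those of uninduced replicates 2 and 3, while uninduced replicate 1 lay among the induced values. The mean log2 ratio differed by 0.30, with an exact two-sided permutation p of 0.3 (adjusted p 0.36 over the 6 ratios and shares computed). It was 0.52 without uninduced replicate 1 and 0.19 without uninduced replicate 2 or 3. With 3 libraries against 3 the smallest p is 0.1, so no ratio could pass 0.05.

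**Figure D2:**
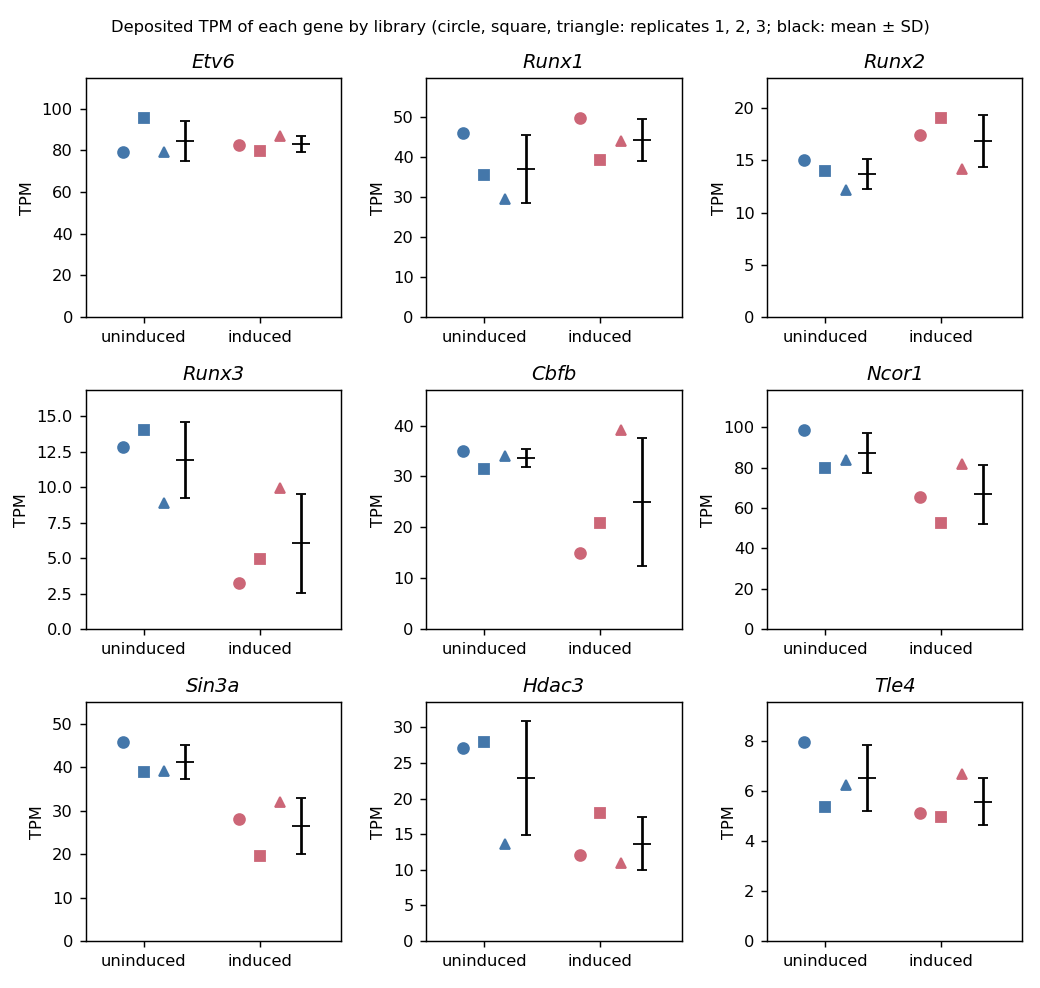
Deposited TPM (y axis, from 0) of each of the 9 genes in the 3 uninduced (blue) and 3 induced (red) libraries. Circles, squares and triangles are replicates 1, 2 and 3, and the black bar is the mean ± SD. Sin3a is the gene whose groups do not overlap; for Cbfb, induced replicate 3 at 39.1 TPM is above every other library.

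The other Runx genes were expressed below Runx1 and their log2 changes had opposite signs, neither of which passed. Runx2 (ENSMUSG00000039153, chr17:44495987-44814797, minus strand), best known as the master regulator of bone formation, was at 15.01, 13.9 and 12.1 TPM in uninduced and 17.4, 19.1 and 14.1 TPM in induced libraries. The groups overlapped through induced replicate 3, and the log2 change was 0.28 (95% interval -0.26 to 0.81, limma adjusted p 0.485). On the rescaled values they were separate, at 12.5, 11.0 and 11.5 against 19.6, 23.1 and 15.01, with a log2 change of 0.66 (95% interval 0.14 to 1.18, limma adjusted p 0.134). Runx2 overlaps Supt3, a gene on the opposite strand listed at 6.96 to 20.1 TPM, and the strand setting of the counting is not given in the sources used here.

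Runx3 (ENSMUSG00000070691, chr4:135120652-135177990, plus strand), known for roles in T and natural killer cells, was at 12.8, 14.0 and 8.89 TPM in uninduced and 3.25, 4.94 and 9.93 TPM in induced libraries. Induced replicates 1 and 2 were the lowest of the 6, and induced replicate 3 lay above uninduced replicate 3. The means were 11.9 ± 2.69 and 6.04 ± 3.47 TPM, and the log2 change of -0.97 (95% interval -1.82 to -0.11) was the largest in size among the 9 genes on the deposited scale. It did not pass over all genes (limma adjusted p 0.133), nor on the rescaled values, at -0.60 with an adjusted p of 0.373, where Runx1 and Runx2 had the larger changes.

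The summed Runx level was 62.7 ± 11.8 and 67.3 ± 3.66 TPM on the deposited scale, with overlapping groups. On the rescaled values the sum was 61.6, 49.98 and 47.7 in uninduced and 79.3, 76.7 and 72.3 in induced libraries, and the groups were separate. The shares of the 3 genes in the sum are the same on both scales. Runx1 made up 62.4%, 56.0% and 58.3% of the sum in uninduced and 70.6%, 62.1% and 64.7% in induced libraries. The Runx1 share differed by 6.90 percentage points, with overlap between uninduced replicate 1 and induced replicate 2 (exact two-sided permutation p 0.2, adjusted p 0.36). Without induced replicate 1 the difference was 4.49 points. Runx3 made up 17.3%, 22.1% and 17.6% in uninduced and 4.61%, 7.80% and 14.6% in induced libraries. Each induced library had a lower Runx3 share than each uninduced one, by 10.01 percentage points on average. This comparison was added after the values were seen, and its exact permutation p (two-sided) was 0.1, the smallest value possible (adjusted p 0.3). The Runx2 share overlapped, at 20.3% to 24.1% and 20.8% to 30.1%.

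**Figure D3:**
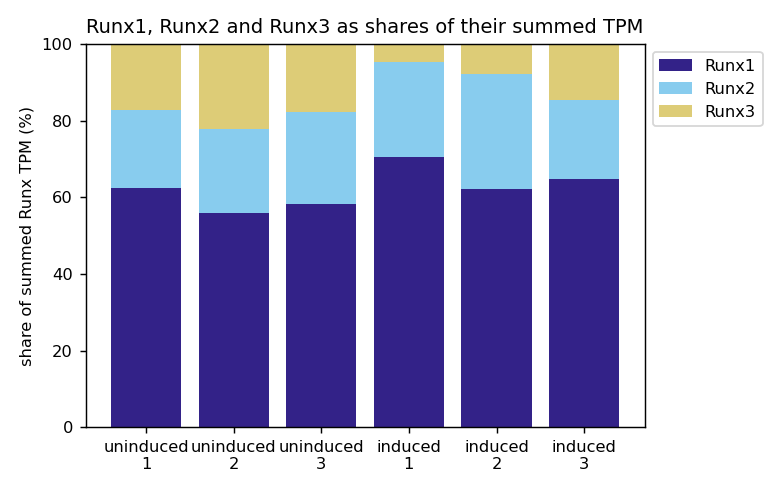
Shares (y axis, percent) of Runx1, Runx2 and Runx3 in their summed TPM in each of the 6 libraries. The Runx3 segment is 17.3% to 22.1% in the uninduced and 4.61% to 14.6% in the induced libraries.

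Cbfb (ENSMUSG00000031885, chr8:105170674-105217989, plus strand) encodes the subunit that all RUNX proteins bind. It was at 35.0, 31.6 and 34.1 TPM in uninduced and 14.9, 20.9 and 39.1 TPM in induced libraries. The uninduced libraries were close together, and the induced libraries included both the lowest values and the highest. The means were 33.5 ± 1.77 and 25.0 ± 12.6 TPM, a log2 change of -0.52 (95% interval -1.22 to 0.18, limma adjusted p 0.316), and of -0.13 rescaled (0.859). Without induced replicate 3 the deposited change was -0.89 (limma adjusted p 0.0729), and without induced replicate 1 it was -0.22 (0.695), so its size rests on single libraries. There were 1.32, 1.13 and 0.864 Runx1 transcripts (by TPM) for each Cbfb transcript in uninduced and 3.33, 1.89 and 1.13 in induced libraries. Induced replicates 1 and 2 had the highest ratios, and induced replicate 3 lay within the uninduced range, with an exact two-sided permutation p of 0.3 (adjusted p 0.36). The mean log2 ratio differed by 0.82, by 1.21 without induced replicate 3 and by 0.42 without induced replicate 1.

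Ncor1 and Hdac3 encode a corepressor and the deacetylase it activates. Ncor1 (ENSMUSG00000018501, chr11:62316426-62458541, minus strand) was at 98.5, 79.7 and 83.7 TPM in uninduced and 65.6, 52.6 and 82.0 TPM in induced libraries. The overlap came from induced replicate 3 alone. The log2 change was -0.40 (95% interval -0.85 to 0.047, limma adjusted p 0.226), close to the median gene, and it was 0.0032 on the rescaled values (95% interval -0.39 to 0.39). With 1 library left out it ranged from -0.56 without induced replicate 3 to -0.24 without induced replicate 2. Ncor1 overlaps Ttc19 and Pigl on the opposite strand, which were listed at 2.73 to 9.32 and 1.31 to 6.73 TPM. Hdac3 (ENSMUSG00000024454, chr18:37935844-37955016, minus strand) was at 27.1, 27.9 and 13.7 TPM in uninduced and 12.1, 17.9 and 11.0 TPM in induced libraries. Uninduced replicate 3 lay with the induced libraries, below induced replicate 2. The means were 22.9 ± 8.004 and 13.7 ± 3.73 TPM, a log2 change of -0.67 (95% interval -1.39 to 0.047, limma adjusted p 0.206), and of -0.28 rescaled (0.651). Hdac3 was at 0.275, 0.351 and 0.164 of the Ncor1 level in uninduced and 0.185, 0.341 and 0.134 in induced libraries, with wide overlap (exact two-sided permutation p 0.7, adjusted p 0.7).

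Sin3a (ENSMUSG00000042557, chr9:57072040-57128366, plus strand) encodes the scaffold of a separate deacetylase complex. It was at 45.8, 38.8 and 39.3 TPM in uninduced and 28.1, 19.5 and 32.1 TPM in induced libraries. Each induced library was below each uninduced one. The means were 41.3 ± 3.91 and 26.6 ± 6.46 TPM, a log2 change of -0.64 (95% interval -1.15 to -0.13), with an unadjusted limma p of 0.0191 and an adjusted p of 0.101. On the rescaled values the groups overlapped and the change was -0.25 (limma adjusted p 0.529). Tle4 (ENSMUSG00000024642, chr19:14448150-14598051, minus strand), a Groucho corepressor, was the lowest of the 9 genes. It was at 7.94, 5.35 and 6.24 TPM in uninduced and 5.10, 4.93 and 6.65 TPM in induced libraries. The groups overlapped, and the log2 change of -0.19 (limma adjusted p 0.730) became 0.16 on the rescaled values. Without uninduced replicate 1, the highest library, it was -0.06, while it was -0.31 without induced replicate 3 and -0.30 without uninduced replicate 2 (limma, deposited scale).

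By mean level over the 6 libraries the order was Etv6 (83.7 TPM), Ncor1 (77.0), Runx1 (40.7), Sin3a (33.9), Cbfb (29.3), Hdac3 (18.3), Runx2 (15.3), Runx3 (8.98) and Tle4 (6.04). Among neighbours in this order, only Ncor1 and Runx1 had ranges over the 6 libraries that did not overlap. Cbfb was above Hdac3 in 6 of 6 libraries although their ranges overlapped. The remaining neighbours changed places in at least 1 library, as did Etv6 and Ncor1, of which Etv6 was the higher in 4 of 6. The order of the group means also differed. In uninduced libraries Ncor1 was above Etv6 and Sin3a (41.3) above Runx1 (37.1), and in induced libraries Runx2 (16.9) was above Hdac3 (13.7).

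The profiles most like those of the fusion's parents were found among 10575 protein-coding genes by the root mean square distance of centred log2(TPM + 1) values over 6 libraries. The nearest to Etv6 were Fchsd1 (0.0506), Zfp775 (0.0520) and the glycolytic enzyme gene Pkm (0.0530). The nearest to Runx1 were Zkscan14 (0.0832), Tlr4, a receptor for bacterial lipopolysaccharide (0.0848), and the kinase gene Prkch (0.0866). These distances are in log2 units and describe these 6 libraries, which share scaling and any batch.

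The rest of the corepressor and RUNX network was described with 9 gene lists of 99 distinct genes, of which 80 could be tested. Of these, 15 passed on the deposited scale, 3 higher, 12 lower, and the median change was -0.30, beside -0.35 for all genes. All genes passed at 1.29% higher and 10.2% lower. On the rescaled values 8 of 80 passed, 4 higher and 4 lower, where all genes passed at 2.88% and 3.10%, and 7 genes passed on both scales. With 1 library left out 6 to 9 list genes passed. The number was 6 without uninduced replicate 1, uninduced replicate 2 or induced replicate 2, and 8 without uninduced replicate 3, all among the 15. It was 9 without induced replicate 1 or induced replicate 3, of which 8 were among the 15 in each case and 1 was not.

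**Figure D4:**
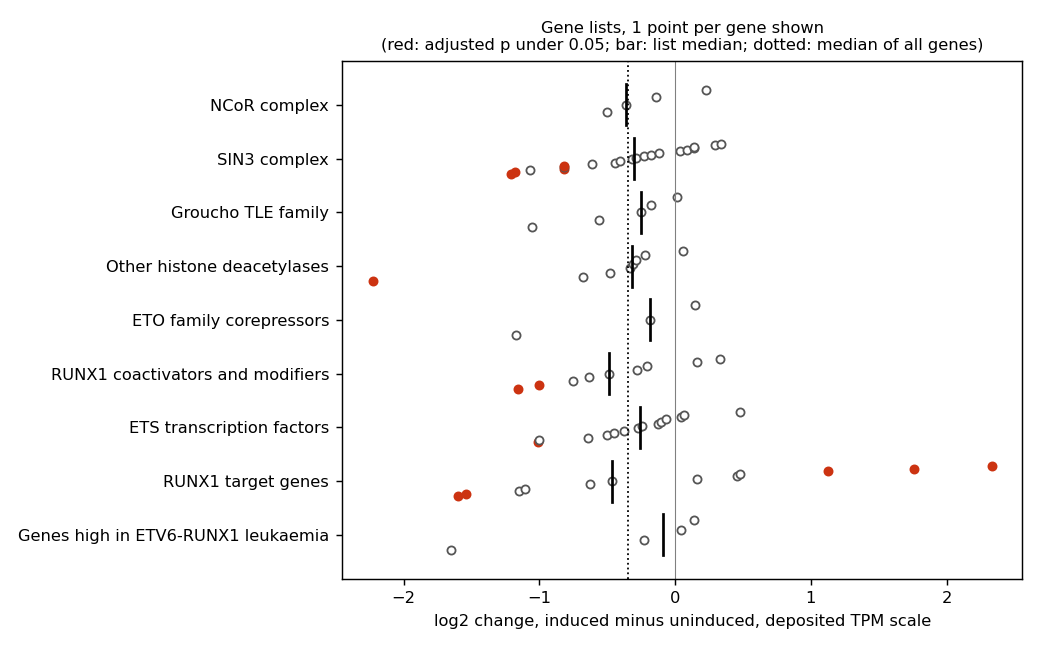
Log2 change (induced minus uninduced, deposited TPM scale, x axis) of the tested genes in the 9 lists, with 2 genes that are not reported here left undrawn. Red points passed an adjusted p of 0.05 (limma), black bars are medians over the whole lists and the dotted line is the median of all genes, -0.35. The 3 red points to the right of 0 lie in the RUNX1 target list, and the other red points lie to the left.

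In the NCoR complex, the actin-binding subunit gene Coro2a was the highest of the list. It was at 62.2, 88.2 and 72.5 TPM in uninduced and 85.98, 81.3 and 92.4 TPM in induced libraries. Uninduced replicate 2 lay among the induced libraries. The means were 74.3 ± 13.1 and 86.6 ± 5.57 TPM, and the log2 change of 0.23 did not pass on the deposited scale (limma adjusted p 0.439). When rescaled, Coro2a passed as higher (0.63, limma adjusted p 0.0465), but it did not with quantile normalization (0.62, 0.0548). The deposited change was 0.11 without uninduced replicate 1 and 0.36 without uninduced replicate 2.

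Of the 20 genes of the SIN3 complex, 4 fell and 0 rose on the deposited scale, where 10.2% of all genes fell and 1.29% rose. The list's median was -0.30, beside -0.35 for all genes. The 4 were the histone chaperone subunit genes Rbbp7 and Rbbp4, the deacetylase gene Hdac2 and the chromatin reader gene Ing2. Rbbp7, the highest of the list, fell from 160 ± 25.2 to 71.3 ± 19.0 TPM, a log2 change of -1.18 (limma adjusted p 0.0102), and also passed on the rescaled values (-0.77, adjusted p 0.0484). Its call was lost without uninduced replicate 2 (adjusted p 0.0513), without the filter (0.0545), with quantile normalization (0.0565), after rescaling to protein-coding genes (0.0545) and without the variance trend (0.0572). Rbbp4 (-0.82, limma adjusted p 0.0284), Hdac2 (-0.81, 0.0432) and Ing2 (-1.21, 0.0338) missed the threshold once rescaled (adjusted p 0.206, 0.303 and 0.138). The calls of Rbbp4 and Hdac2 were lost whichever library was left out, and that of Ing2 was kept only without induced replicate 3. Rbbp7, Rbbp4 and Hdac2 also serve other chromatin complexes, and RBBP4 is a subunit of a chromatin assembly factor of dividing cells. Beside these values, the summed level of Mki67 and Top2a was 106 to 118 TPM in uninduced and 12.7 to 18.3 TPM in induced libraries, and its part in them was not tested.

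No other TLE gene passed, with 0 of 5 on either scale and 0 at an unadjusted p under 0.05, beside 27.9% of all genes as deposited and 21.8% rescaled. The highest was Tle5, a short Groucho protein that lacks the repressive domain, at 64.2 ± 10.1 and 57.3 ± 13.3 TPM, with overlapping groups and log2 changes of -0.17 as deposited (limma adjusted p 0.640) and 0.23 rescaled (0.547). Tle4 was thus expressed well below Tle5, at 6.04 against 60.8 TPM over the 6 libraries. Of the 8 other deacetylase genes, 1 fell and 0 rose, beside 10.2% and 1.29% of all genes. This was Hdac6, a cytoplasmic tubulin deacetylase that is not part of the NCoR or SIN3 complexes, at 15.8, 19.4 and 15.2 TPM in uninduced and 2.60, 3.24 and 2.55 TPM in induced libraries. The groups were far apart, and the log2 change was -2.23 as deposited (SE 0.28, limma adjusted p 0.00236) and -1.87 rescaled (0.00599). The highest of that list, Hdac7, did not pass, with -0.22 on the deposited and 0.17 on the rescaled values, and -0.11 on the deposited scale without induced replicate 2. Of the 3 ETO family genes, corepressors related to the partner in another RUNX1 fusion, 0 passed with limma and 1 had an unadjusted p under 0.05, beside 11.5% and 27.9% of all genes. Cbfa2t3, the highest, was at 37.6 ± 1.37 and 41.7 ± 2.89 TPM. Its log2 change was 0.14 as deposited (limma adjusted p 0.638) and 0.54 rescaled, where the groups did not overlap (0.0931).

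Of 9 coactivators and modifiers of RUNX1, 2 fell and 0 rose on the deposited scale, beside 10.2% and 1.29% of all genes. Once rescaled, 0 passed with limma, beside 5.98% of all genes, and 3 had an unadjusted p under 0.05, beside 21.8%. The 2 that fell were Prmt1, an arginine methyltransferase that modifies RUNX1, and Smarca4, the ATPase of a chromatin remodeller. Prmt1 was at 67.2 ± 23.2 and 28.5 ± 4.65 TPM, a log2 change of -1.15 (limma adjusted p 0.0274; 0.114 rescaled). Smarca4, the highest of the list, was at 77.2 ± 10.6 and 38.4 ± 7.74 TPM, a log2 change of -1.001 (limma adjusted p 0.0160; 0.0853 rescaled). With 1 library left out, the call of Prmt1 was kept only without uninduced replicate 3, and that of Smarca4 was lost without uninduced replicate 1, uninduced replicate 2 or induced replicate 2. Among ETS factors, 14 of 15 were tested and 1 fell on the deposited scale, beside 10.2% of all genes. This was the repressor gene Erf (-1.01, limma adjusted p 0.0463), which did not pass once rescaled (0.187), nor whichever library was left out. Erg, a stem cell factor and the highest of the ETS list, was at 83.1 ± 11.6 and 87.5 ± 15.5 TPM, near the level of Etv6, with log2 changes of 0.07 as deposited (limma adjusted p 0.852) and 0.47 rescaled (0.226).

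Genes known as RUNX1 targets changed in both directions. Of 27 listed genes 13 were tested, and 3 rose and 3 fell on the deposited scale, where 1.29% and 10.2% of all genes did. Rescaled, 3 rose and 1 fell, beside 2.88% and 3.10% of all genes. The median change was -0.46, beside -0.35 for all genes. Gfi1, a repressor that restrains stem cell proliferation, was at 3.88, 3.46 and 2.16 TPM in uninduced and 12.5, 13.6 and 12.5 TPM in induced libraries (log2 change 1.76, SE 0.30, limma adjusted p 0.00709). Its paralog Gfi1b, a regulator of erythroid and megakaryocytic cells, moved the other way, at 16.4, 18.3 and 29.0 TPM against 10.9, 3.85 and 6.12 TPM (-1.54, SE 0.37, limma adjusted p 0.0276; 0.116 rescaled). In both genes the groups did not overlap. With 1 library left out, the call of Gfi1b was kept only without induced replicate 1.

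The lipoxygenase gene Alox12 rose, from 0, 0 and 0.652 TPM to 5.15, 4.03 and 5.81 TPM (log2 change 2.33, limma adjusted p 0.00898). Its uninduced mean was 0.217 TPM, so it reached the mean of 1 TPM needed for testing only through the induced libraries. The surface peptidase gene Anpep fell on the deposited scale, from 4.37 ± 1.30 to 0.841 ± 0.762 TPM (limma adjusted p 0.0489). It did not pass once rescaled (limma adjusted p 0.112), without the filter, or whichever library was left out. Anpep reached the mean of 1 TPM only through the uninduced libraries. Pf4, a platelet chemokine named after its values were seen, rose from 28.4 ± 11.2 to 60.7 ± 8.62 TPM (log2 change 1.13, limma adjusted p 0.0253), and with 1 library left out its call was kept only without uninduced replicate 2. Pf4 is itself 1 of the megakaryocyte markers. Nfe2, the highest of the list and a megakaryocytic factor, did not pass (170 ± 21.2 and 114 ± 42.0 TPM, limma adjusted p 0.127; -0.22 and 0.655 rescaled), but passed as lower without induced replicate 1 (-0.90, limma adjusted p 0.0430). The lymphoid targets Ebf1, Pax5, Cd79a and Blk were listed at 0 in all 6 libraries.

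**Figure D5:**
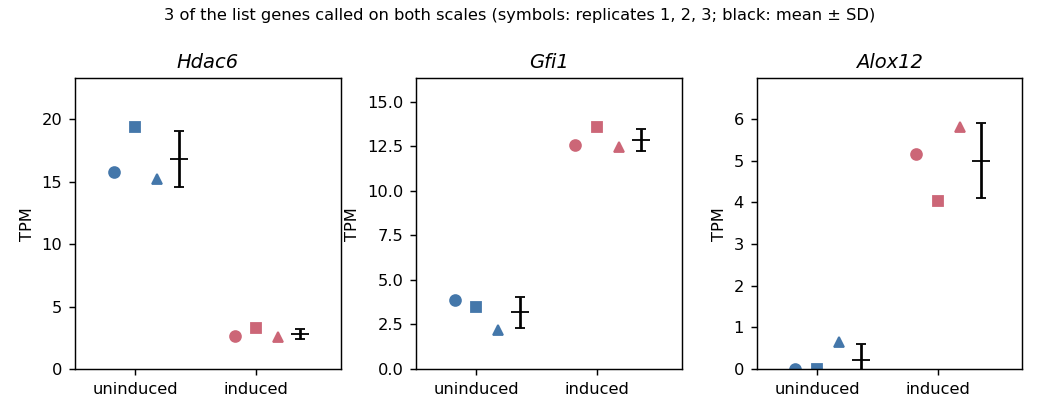
Deposited TPM (y axis, from 0) of Hdac6, Gfi1 and Alox12 in the uninduced (blue) and induced (red) libraries; symbols are replicates 1, 2 and 3 and black bars are mean ± SD. These 3 genes, picked for display after their values were seen, passed on both scales, with Hdac6 lower and Gfi1 and Alox12 higher in the induced libraries. Alox12 reached the mean of 1 TPM needed for testing only through the induced libraries.

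Of 8 genes known to be high in human ETV6-RUNX1 leukaemia, 4 could be tested and 0 passed with limma on either scale, where 11.5% of all genes passed as deposited and 5.98% rescaled. At an unadjusted p under 0.05 there were 1 as deposited and 2 rescaled, beside 27.9% and 21.8% of all genes. Epor, the erythropoietin receptor and a gene described as a target of the fusion, was at 3.42, 2.105 and 4.57 TPM in uninduced and 0, 0 and 1.45 TPM in induced libraries. The groups did not overlap, and the value was lower in induced cells (log2 change -1.65, limma adjusted p 0.0638). Epor reached the mean of 1 TPM needed for testing only through the uninduced libraries. Without induced replicate 3, the 1 induced library above 0, Epor passed as lower (limma adjusted p 0.0464), so the count of 0 rests on that library. The highest of the list, Cd27, a receptor of lymphoid and stem cells, was at 68.7 ± 19.5 and 73.9 ± 10.1 TPM. Its log2 change was 0.14 as deposited (limma adjusted p 0.740) and 0.54 rescaled (0.131). Dsc3, Tcfl5 and Birc7 were listed at 0 in all 6 libraries.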

How the data were processed

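The authors deposited 1 table of TPM values, with a column per library. Per the submitters' processing notes, bcl2fastq, HISAT2, StringTie, DESeq2 and the build GRCm38 were used, and the table's own title credits the TPM to StringTie. Versions, annotation release and strand setting are not given in the sources used here. Per the labels' protocols, libraries came from a stranded pico-input total-RNA kit. The table's GC percent column, per the file headers 1 value per gene, was not used. Rows (60496) were summed per gene ID (55471). limma 3.58.1 in R 4.3.3 was fitted to log2(TPM + 1) of the 13470 genes whose mean reached 1 TPM, with a variance trend and no block, two-sided, with Benjamini-Hochberg adjustment over all of them; a fold change on this scale understates that of low genes. Groups came from library titles. That fit was first tested on simulated data. Ratios and shares were compared with exact permutation tests in Python 3.11.15.

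The genes and lists were chosen with earlier results of these data known, so neither is independent of them. Counts over lists, and adjustments over measures, include a few genes and 1 ratio that are not reported here. In each list the text names the highest gene and at most 4 genes past the threshold with the largest change. Alternatives were pseudocounts of 0.1 and 5, no filter, a mean of at least 5 TPM, 3 other scalings, dropping each library in turn, a block for replicate number, weighted arrays and a fit with no trend. Positions are from GENCODE M21 (GRCm38).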

Additional observations from a re-analysis of the deposited data

How the results depend on the processing

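Over 16 alternatives none of the 144 recomputed changes of the 9 genes passed (limma, smallest adjusted p 0.0660). Signs turned for Etv6 (0.38, 0.36 and 0.41), Tle4 (0.16, 0.15 and 0.18), Tle5 (0.23, 0.22 and 0.26) and Hdac7 (0.17, 0.17 and 0.19) after median-of-ratios scaling, quantile normalization and rescaling to nuclear protein-coding genes. Ncor1 turned to 0.0032 and 0.032 under the first and last of these. When a library was left out, Etv6 ranged from -0.066 to 0.069, Erg from -0.046 to 0.21, Cd27 from -0.096 to 0.32, and the Hdac3 to Ncor1 log2 ratio from -0.67 to 8.6e-05. The number of list genes past the threshold, 15 in the main fit, fell to 6 without the filter and 5 without the variance trend. It was 7 rescaled to protein-coding genes, 6 with quantile normalization, 8 by the median of ratios, and 6 to 9 with 1 library fewer. Some of these counts include a gene outside the 15. The cause was not tested. Hdac6, Gfi1 and Alox12 passed under each alternative that tested them; Alox12 is removed by a mean of at least 5 TPM. Of the other named genes, leaving single libraries aside, 53 of 218 results lost a call, in 10 genes, and 2 gained one, in 1 gene. The 218 include results of genes that had no call to lose. With the replicate block 0 of the 9 genes and 10 list genes passed; same-numbered libraries share only a number, and their deviations from the group means correlated at 0.021, -0.015 and 0.017. Depth is unknown, so no limit on low values can be given.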
